A study of Mus musculus with 22 samples.

Results

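The *Peg10* imprinted cluster on mouse chromosome 6 was followed in whole brains of newborn pups from both Prader-Willi syndrome (PWS) mouse models. It was represented by 8 genes, *Peg10*, *Sgce*, *Casd1*, *Calcr*, *Asb4*, *Ppp1r9a*, *Pon2* and *Pon3*, out of 55406 genes found in the tables of both series. The members were taken by name, as imprinted genes around *Peg10*. *Peg10* and *Calcr* drew attention to the cluster because they were among the genes called higher in PWS-IC pups, so the cluster was selected on the PWS-IC comparison. Values from that comparison are therefore given as a description, and tests are given for the PWS-cr series, for sex and for the relations between the genes. In the PWS-IC fits given here, both genes were called only without the libraries labelled 1_3_IC and 1_7_IC, which go against their labels (described below).

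PWS-cr pups were heterozygous for a paternally inherited deletion of the Prader-Willi critical interval, the stretch with *Snord116* and *Ipw*. PWS-IC pups carried a paternally inherited deletion of the imprinting centre, which keeps the paternal genes of the whole Prader-Willi locus active. Both deletions lie on chromosome 7 and leave chromosome 6 intact. Pups were taken at postnatal day 0, on the morning after birth, and each mutant group was set against wild-type (WT) littermates. There were 6 PWS-cr and 5 WT libraries from 4 litters, and 4 PWS-IC and 5 WT libraries from 2 litters, with 1 pup in each library. The PWS-cr animals of the study's behavioural cohort had CD1 mothers, and the cross behind the sequenced pups is not given in the sources used here. A whole brain mixes all regions, and in such a sample fewer cells of a type and less RNA per cell cannot be told apart.

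Imprinted genes are read from only one parental chromosome. In this cluster, *Peg10* and *Sgce* are read from the paternal chromosome and share a start region that is methylated on the maternal one. *Calcr*, in brain, and *Asb4* are read mainly from the maternal chromosome in the mouse, whereas *Ppp1r9a*, *Pon2* and *Pon3* are best known for imprinting in the placenta, and *Casd1* lies at the edge of the domain. The reads were not assigned to a parent, so every value below is the sum over both chromosomes.

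Total counts per library ranged from 45798407 to 62103143, and all 8 genes passed the filter of at least 10 counts in at least 4 libraries in both series. In the PWS-IC series, *Snrpn*, a paternal gene of the Prader-Willi locus that PWS-IC pups cannot express, was used to check the labels. In 3 PWS-IC libraries it had 255 to 425 counts, against 12281 to 16556 counts in 4 WT libraries. In the library labelled 1_3_IC (PWS-IC, female) *Snrpn* reached 18116 counts with 64 counts of *Xist*, and in the library labelled 1_7_IC (WT, male) it stood at 343 counts with 124574 of *Xist*. Both libraries go against their labels in genotype and sex. The series is therefore given as labelled (9 libraries) and without these libraries (7 libraries, 3 PWS-IC and 4 WT). Of the 7 libraries, all 3 PWS-IC pups were labelled female and 3 of the 4 WT pups male, so genotype and sex are partly confounded there, with 1 WT female, 1_1_IC, to separate them.

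The 8 genes span 1747 kb of chromosome 6 (GRCm38, the mm10 build of the files). *Calcr* lies at 3685680 to 3764714 on the minus strand, and *Casd1* follows at 4600839 to 4643355 on the plus strand, 836 kb away. *Sgce* (4674350 to 4747207, minus strand) and *Peg10* (4747306 to 4760517, plus strand) are transcribed away from each other, with 98 bases between their first bases. *Ppp1r9a* (4902917 to 5165661, plus strand), *Pon3* (5220852 to 5256286, minus strand), *Pon2* (5264147 to 5298455, minus strand) and *Asb4* (5383386 to 5433022, plus strand) complete the cluster. The libraries were unstranded. The exons of 7 members share 0 bases with other annotated genes, and 9.3% of the exonic bases of *Pon2* overlap *Gm44424* on the opposite strand, so that reads there cannot be assigned to either.

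*Peg10* encodes a protein that descends from a retrotransposon and is needed for the placenta. Its second reading frame is reached by a ribosomal shift back by a single base at a slippery heptamer. The heptamer is shown because both annotated proteins of the gene come from the same reads around it, and counts per gene do not separate them. It is printed in capitals in a coding window at chr6:4755312-4755348 on the plus strand, read from the GENCODE transcript Peg10-202 (GRCm38):
Peg10-202: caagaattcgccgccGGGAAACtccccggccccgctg

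In Peg10-202 the heptamer begins at base 1477 of 6667, inside the first frame, which ends at base 1498. In Peg10-203, which is annotated with the second frame, the same heptamer begins at base 1377, ahead of the annotated coding start at base 1476.

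Promoter windows of 300 bases from RefSeq (GRCm38.p6) cover 6 of the 8 genes, and *Peg10* and *Sgce* have no entry. The windows of *Calcr* and *Asb4* are shown because these genes varied together with *Peg10* between pups (described below). CpG dinucleotides, the sites that carry imprinting methylation, are in capitals. The first window is chr6:3763574-3763873 on the minus strand and the second is chr6:5383136-5383435 on the plus strand:
Calcr: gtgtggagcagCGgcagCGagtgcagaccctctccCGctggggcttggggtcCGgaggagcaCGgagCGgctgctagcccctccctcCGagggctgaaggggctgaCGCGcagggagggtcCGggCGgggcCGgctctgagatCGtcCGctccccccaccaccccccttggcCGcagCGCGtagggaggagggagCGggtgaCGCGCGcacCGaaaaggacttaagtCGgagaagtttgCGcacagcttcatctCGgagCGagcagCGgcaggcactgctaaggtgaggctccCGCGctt
Asb4: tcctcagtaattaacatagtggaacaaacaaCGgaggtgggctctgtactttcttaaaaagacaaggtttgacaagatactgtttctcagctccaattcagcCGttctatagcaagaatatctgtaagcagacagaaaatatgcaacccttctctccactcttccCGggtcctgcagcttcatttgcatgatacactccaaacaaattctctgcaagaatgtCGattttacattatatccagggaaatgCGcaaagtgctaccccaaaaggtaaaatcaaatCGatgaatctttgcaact

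The *Calcr* window holds 29 CpG and 70.0% G and C, and 12.9% of the 32851 windows in the RefSeq table hold at least as many CpG. The *Asb4* window holds 6 CpG and 40.3% G and C, a number reached by 56.4% of windows. The motif searched was CG, which reads the same on both strands, and 94.6% of all windows hold at least 1. A second window of *Calcr* (3764664 to 3764963) holds 4 CpG and a second window of *Asb4* (5390160 to 5390459) holds 8. The most CpG-rich window of the cluster belongs to *Ppp1r9a* (4903061 to 4903360), with 48. The counts per gene do not show which start was used.

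Per unit of transcript length, the cluster fell into a high and a low set of genes. In TPM, the share of transcripts after scaling for length, over the 11 libraries of the PWS-cr series, *Casd1*, a sialic acid O-acetyltransferase of the Golgi, was at 95.2 ± 5.41 (SD, n = 11). *Peg10* was at 90.7 ± 20.1 TPM and *Ppp1r9a*, the actin-binding neurabin of synapses, at 62.2 ± 4.40 TPM. The ranges of *Casd1* (88.0 to 108 TPM) and *Peg10* (68.7 to 136 TPM) overlapped, as did those of *Peg10* and *Ppp1r9a* (55.3 to 70.2 TPM).

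*Asb4*, an ankyrin repeat protein with a SOCS box that marks the arcuate nucleus of the hypothalamus, followed at 14.2 ± 4.17 TPM, and its range did not reach that of *Ppp1r9a*. *Pon2*, an intracellular lactonase, was at 11.7 ± 1.44 TPM, and *Sgce*, the membrane glycoprotein epsilon-sarcoglycan, at 11.3 ± 0.644 TPM. *Calcr*, the receptor for calcitonin and, with accessory proteins, for amylin, was at 8.18 ± 3.27 TPM. Among these 4 genes, each overlapped in range with the next in the order. *Pon3*, a lactonase best known from liver and serum, was the lowest at 2.37 ± 0.401 TPM and did not overlap with *Calcr*. In the 9 libraries of the PWS-IC series the high set again held *Casd1* (99.1 TPM), *Peg10* (91.9 TPM) and *Ppp1r9a* (53.6 TPM), and *Pon3* was again the lowest at 2.26 TPM.

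The genes also differed in how much they varied between pups of the PWS-cr series. The highest library exceeded the lowest by 3.54-fold for *Calcr*, 2.92-fold for *Asb4* and 1.95-fold for *Peg10*, in CPM, which are counts scaled to library size by TMM. The fold was 1.17 for *Sgce*, 1.21 for *Casd1* and 1.23 for *Ppp1r9a*. Counting error plays a larger part at lower counts, and *Pon3*, with 78 to 136 counts per library, varied by 1.74-fold. *Calcr* had 191 to 712 counts and *Peg10* 5276 to 10842, so that the spread of both is wider than that of *Pon3* at higher counts.

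In PWS-cr pups no gene of the cluster was called, and the gene with the lowest unadjusted p was *Peg10*. It had 116, 138 and 149 CPM (lowest, median and highest) in the 6 PWS-cr libraries, against 131, 138, 164, 193 and 226 CPM in the 5 WT libraries. The groups overlapped, with 3 of the WT libraries above every PWS-cr library. The PWS-cr pups averaged 134 ± 14.2 CPM of *Peg10* and the WT pups 170.4 ± 39.5 CPM (SD, n = 6 and 5). The log2 fold change was −0.28 with a standard error (SE) of 0.144, and edgeR's quasi-likelihood test with Benjamini-Hochberg adjustment gave an adjusted p = 1. Within litters the difference in mean log2 CPM was 0.03 in litter 1, −0.46 in litter 3 and −0.39 in litter 4, and litter 2 held no WT library. Leaving out 1 library at a time gave −0.45 to −0.17.

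*Calcr* had 4.19, 7.45 and 9.74 CPM (lowest, median and highest) in the 6 PWS-cr libraries, against 4.71, 5.37, 10.1, 10.3 and 14.8 CPM in the 5 WT libraries. The groups overlapped, with the WT values of 10.1, 10.3 and 14.8 CPM above every PWS-cr library, as for *Peg10*. The highest library, the WT pup labelled 4_2_Cr, was also the highest for *Peg10*, *Asb4*, *Casd1* and *Pon2*. The log2 fold change of *Calcr* was −0.12 (SE 0.306), and leaving out 1 library at a time gave −0.48 to 0.12. For *Asb4* the 6 PWS-cr libraries had 7.54, 13.1 and 17.1 CPM (lowest, median and highest), against 9.35, 10.9, 16.5, 16.8 and 22.0 CPM in the 5 WT libraries. Its groups overlapped as well, and its log2 fold change was 0.00 (SE 0.219). Both genes were higher in PWS-cr than in WT pups in litter 1 (0.51 and 0.30 on the log2 scale for *Calcr* and *Asb4*) and lower in litter 3 (−0.53 and −0.17) and litter 4 (−0.34 and −0.17).

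The other 5 genes were within a narrow band of the WT level. *Sgce*, which starts beside *Peg10*, averaged 29.7 ± 1.81 CPM in PWS-cr and 30.4 ± 1.14 CPM in WT pups (log2 fold change −0.04, SE 0.0579). *Casd1* averaged 95.8 ± 4.27 CPM in PWS-cr and 96.1 ± 7.15 CPM in WT pups, and *Ppp1r9a* averaged 222 ± 15.8 CPM in PWS-cr and 229.6 ± 16.0 CPM in WT pups. *Pon2* (log2 fold change 0.10, SE 0.116) and *Pon3* (0.12, SE 0.179) were slightly above the WT mean by less than their standard errors. All 8 genes had overlapping genotypes. In the whole table the genotypes did not overlap for 0.171% of 22172 genes.

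Over the 8 genes, 0 were called in PWS-cr pups by edgeR and 0 by DESeq2, where 3 of 22172 genes (0.0135%) were called by edgeR. None of the 8 had an unadjusted p under 0.05, against 459 genes (2.07%) in the table. The log2 fold change was positive for 3 and negative for 5, with a median of −0.02, beside a median of 0.00 over all tested genes. Standard errors ran from 0.0523 for *Casd1* to 0.306 for *Calcr*, so that a change the size of that of *Peg10* is under 1 standard error for *Calcr*.

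**Figure D1:**
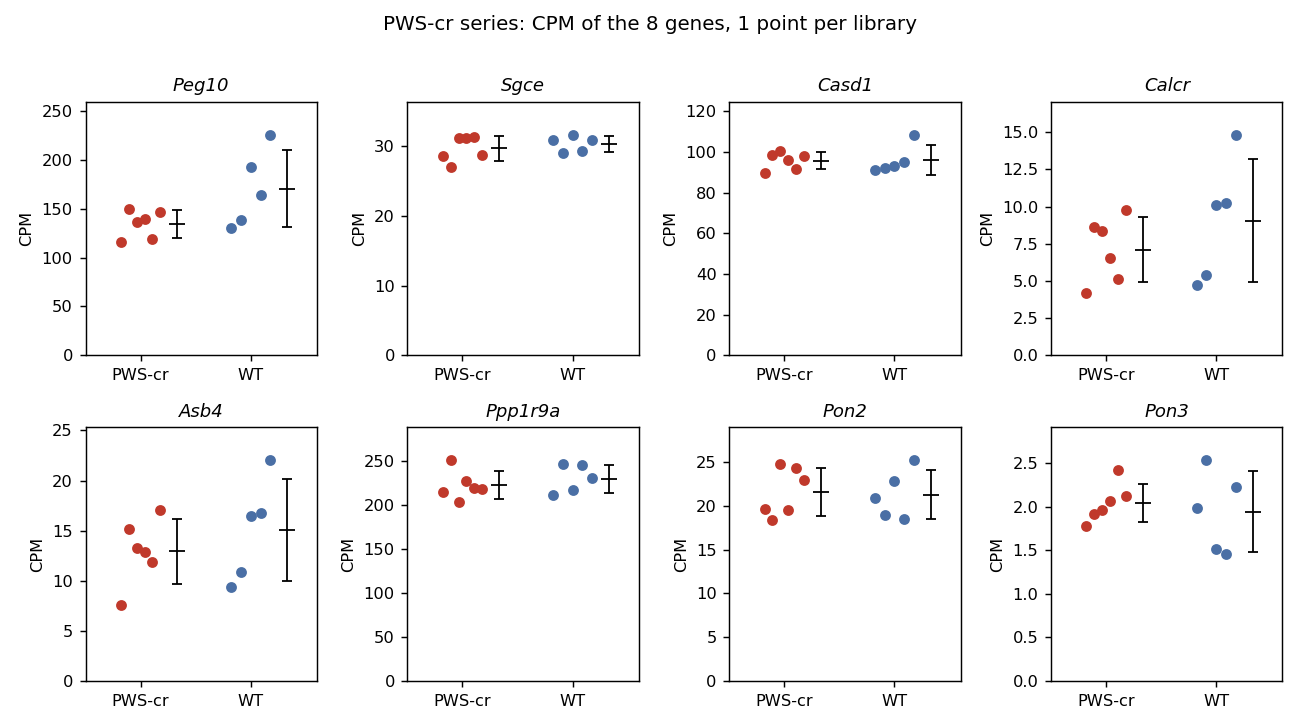
Levels of the 8 genes in the PWS-cr series (CPM, TMM-scaled, 1 point per library), with 6 PWS-cr libraries in red on the left and 5 WT libraries in blue on the right of each panel. The black bar is the mean and SD. The genotypes overlap in all panels, and the highest *Peg10* value, 226 CPM, is a WT library.

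Genes around the cluster were read from a list of 20 proximal chromosome 6 neighbours, of which 19 passed the filter in the PWS-cr series. None was called by edgeR and 1, *Cdk14*, had an unadjusted p under 0.05 (log2 fold change 0.16, SE 0.0696, named after its value was seen). Of the 19, 11 had a positive and 8 a negative log2 fold change, and the median log2 fold change was 0.04. *Pon1*, which lies between *Ppp1r9a* and *Pon3*, had a log2 fold change of −0.24 (SE 0.248) in PWS-cr pups.

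Dissection and cell type markers were set beside these values. The 20 hypothalamus markers, of which 19 passed the filter and *Kiss1* had 0 counts, summed to 84.0 to 114.0 CPM in PWS-cr and to 100.5 to 118 CPM in WT pups, and 13 of the 19 had a negative log2 fold change (median −0.38, with 0 called by edgeR and 3 at an unadjusted p under 0.05). The 10 markers of caudal hindbrain and spinal cord, such as *Hoxb8*, summed to 0.526 to 74.2 CPM in PWS-cr and to 0.708 to 23.9 CPM in WT pups. Of these 10, 8 had a positive and 2 a negative log2 fold change (median 2.42), with 0 called by edgeR. At an unadjusted p under 0.05 there were 5, and they did not all go the same way. Among them *Hoxc8* was lower in PWS-cr pups (log2 fold change −1.2, SE 0.333, named after its value was seen). The sum of 10 neuron markers was 5829 to 6217 CPM in PWS-cr and 5698 to 6223 CPM in WT pups. In the remaining lists 0 genes were called by edgeR. All 8 meninges and fibroblast markers (median log2 fold change 0.21) and 8 of 10 endothelium and pericyte markers (0.06) were positive. Of 8 choroid plexus markers 6 were negative (median −0.13). Olfactory bulb and forebrain tip markers had 5 positive and 3 negative values, and the 6 pituitary markers that passed the filter had 3 of each. The part of all these markers in the values of *Peg10*, *Calcr* and *Asb4* was not tested.

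Between pups of the PWS-cr series, *Calcr* and *Asb4* varied together with *Peg10*, whereas *Sgce* did not. Over the 11 libraries, log2 CPM of *Calcr* and *Peg10* had Pearson's r = 0.89 (permutation p = 1e-05, the smallest that the 100000 permutations can give; adjusted p = 7e-05 over 7 relations) and Spearman's rho = 0.95 (permutation p = 7e-05, adjusted p = 0.00049). *Asb4* and *Peg10* had r = 0.85 (permutation p = 0.00088, adjusted p = 0.00308) and rho = 0.87 (permutation p = 0.00079, adjusted p = 0.00276). All tests were two-sided.

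The PWS-cr library 1_1_Cr had the lowest values of *Peg10* (116 CPM), *Calcr* (4.19 CPM) and *Asb4* (7.54 CPM), and the WT library 4_2_Cr had the highest of each (226, 14.8 and 22.0 CPM). Without the 2 libraries farthest from the median of *Peg10*, the WT pups 4_2_Cr and 3_6_Cr, r was 0.87 for *Calcr* and 0.83 for *Asb4*. With values centred on their litter, over the 10 libraries of the 3 litters with more than 1 library, r was 0.85 for *Calcr* (permutation p within litters = 0.00154, adjusted p = 0.0108) and 0.76 for *Asb4* (permutation p within litters = 0.00682, adjusted p = 0.0239). Spearman's rank correlation on centred values was 0.73 for *Calcr* (adjusted p = 0.0298) and 0.61 for *Asb4* (adjusted p = 0.154, within-litter permutation), so the rank test of *Asb4* did not pass there. Leaving out 1 library at a time, r stayed between 0.83 and 0.91 for *Calcr* and between 0.78 and 0.88 for *Asb4*.

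*Casd1* and *Peg10* had r = 0.69 (permutation p = 0.022, adjusted p = 0.0513) and rho = 0.65 (permutation p = 0.0341, adjusted p = 0.0796). This relation did not pass over the 7 relations, and it passed with values centred on their litter (r = 0.66, permutation adjusted p = 0.0324) and after RLE scaling (r = 0.69, permutation adjusted p = 0.046). Leaving out 1 library gave r from 0.34, without 4_2_Cr, to 0.86, without 3_6_Cr. Without both of these r was 0.64 (permutation adjusted p = 0.155), so the size of the relation depended on both libraries. The relation also passed without 1_5_Cr (r = 0.77, permutation adjusted p = 0.0277) and without 3_6_Cr (r = 0.86, permutation adjusted p = 0.00728).

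*Sgce*, whose first base lies 98 bases from that of *Peg10*, had r = 0.19 with it (permutation p = 0.571, adjusted p = 0.571) and rho = 0.10. *Sgce* stayed between 27.1 and 31.7 CPM while *Peg10* ran from 116 to 226 CPM. *Ppp1r9a* (r = 0.26), *Pon2* (r = 0.28) and *Pon3* (r = −0.26) did not pass either (permutation adjusted p = 0.519 for each). Without 4_2_Cr and 3_6_Cr the r of *Sgce* was −0.34 and that of *Pon2* −0.39, so the sign of these weak relations rests on those libraries. Differences between these correlations were not tested.

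**Figure D2:**
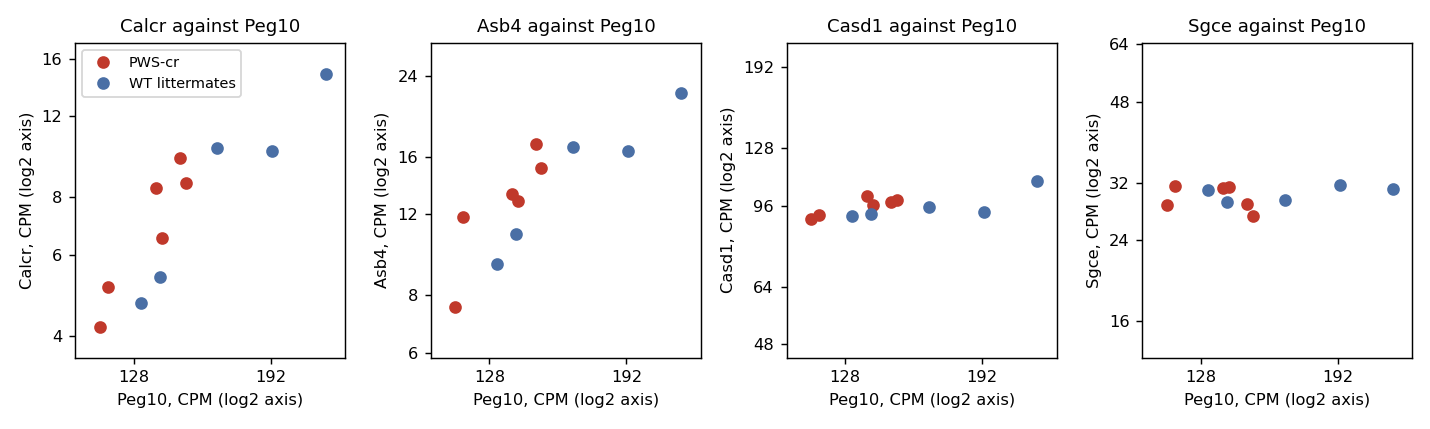
CPM of *Calcr*, *Asb4*, *Casd1* and *Sgce* (vertical, log2 axis spanning the same ratio in each panel) against CPM of *Peg10* (horizontal, log2 axis) in the 11 libraries of the PWS-cr series, with PWS-cr in red and WT in blue. *Calcr* (r = 0.89) and *Asb4* (r = 0.85) climb with *Peg10* in both genotypes, and *Sgce* (r = 0.19) stays level.

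Among 15909 other genes with a mean of at least 1 CPM, *Calcr* ranked 13 and *Asb4* 42 by Pearson's r with *Peg10* over the 11 libraries, while *Casd1* ranked 354 and *Sgce* 4739. The 5 genes most like *Peg10* were *Gspt2* (r = 0.95), a translation termination factor, *Pcdh10* (r = 0.95) and *Pcdh17* (r = 0.93), cell adhesion protocadherins, *Zdbf2* (r = 0.94), an imprinted gene of chromosome 1, and *Magel2* (r = 0.93), an imprinted gene of the Prader-Willi locus outside the PWS-cr deletion. *Zdbf2* ran from 66.9 to 115 CPM and *Magel2* from 34.8 to 67.1 CPM in these libraries. Over the 9 libraries of the PWS-IC series r with *Peg10* was −0.84 for *Gspt2*, 0.55 for *Pcdh10*, 0.73 for *Pcdh17*, 0.59 for *Zdbf2* and −0.73 for *Magel2*, which the PWS-IC deletion silences. Over the 7 libraries it was −0.54 for *Gspt2*, −0.75 for *Pcdh10*, −0.31 for *Pcdh17*, −0.73 for *Zdbf2* and −0.95 for *Magel2*, so the positive values turned negative without 1_3_IC and 1_7_IC. Libraries differed in dissection markers and in depth, with caudal hindbrain and spinal cord sums of 0.526 to 74.2 CPM among PWS-cr pups alone. The part of these differences in the correlations was not tested, and the r values of this paragraph are a description.

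Sex was set against the same genes in the PWS-cr series (5 female and 6 male libraries, with litter and genotype in the model). Sex and genotype were taken from the labels, which were not checked here for this series. None of the 8 genes was called by edgeR or by DESeq2, where edgeR called 7 of 22172 genes (0.0316%). At an unadjusted p under 0.05 there was 1 of the 8, *Ppp1r9a*, beside 601 genes (2.71%) in the table. The log2 fold change, female over male, was 0.05 for *Peg10* (SE 0.137), 0.19 for *Calcr* (SE 0.275) and 0.11 for *Asb4* (SE 0.205). *Ppp1r9a* had −0.14 (SE 0.0539, adjusted p = 1 from edgeR), and *Sgce*, *Pon2*, *Pon3* and *Casd1* lay between −0.09 and 0.16.

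The PWS-IC series is the comparison on which the cluster was selected. Once the libraries at odds with their labels were set aside, *Peg10* and *Calcr* were higher in every PWS-IC than in every WT library. As labelled, the genotypes overlapped for both genes. Their neighbours *Sgce* and *Casd1* were level over the 7 libraries. *Peg10* had 207, 199 and 203 CPM in the PWS-IC libraries 1_10_IC, 4_4_IC and 4_5_IC, against 137, 145, 149.7 and 159 CPM in the WT libraries 1_1_IC, 1_5_IC, 4_3_IC and 4_6_IC. The library labelled 1_3_IC (PWS-IC) had 95.7 CPM and the library labelled 1_7_IC (WT) had 182 CPM. Without these, every PWS-IC library was above every WT library. *Peg10* averaged 203 ± 4.37 CPM in the 3 PWS-IC libraries and 148 ± 9.33 CPM in the 4 WT libraries, 1.37-fold higher (log2 fold change 0.46, SE 0.0573). Over the 9 libraries as labelled it averaged 176 ± 53.7 CPM in PWS-IC pups and 154 ± 17.3 CPM in WT pups, with a log2 fold change of 0.16 (SE 0.197). That value was −0.03 without 1_10_IC and 0.40 without 1_3_IC, the lowest and highest when 1 library was left out.

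*Calcr* had 16.4, 14.9 and 14.3 CPM in the PWS-IC libraries 1_10_IC, 4_4_IC and 4_5_IC, against 10.2, 10.5, 10.5 and 10.2 CPM in the WT libraries 1_1_IC, 1_5_IC, 4_3_IC and 4_6_IC. All WT libraries were below the PWS-IC libraries. The libraries labelled 1_3_IC (PWS-IC) and 1_7_IC (WT) had 10.8 and 12.5 CPM, between these sets. The fold was 1.48 over the 7 libraries (log2 fold change 0.57, SE 0.0816) and 1.31 over the 9 libraries as labelled (0.39, SE 0.134).

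*Asb4* had 20.7, 15.6 and 18.2 CPM in the PWS-IC libraries 1_10_IC, 4_4_IC and 4_5_IC, against 13.6, 15.8, 15.2 and 14.0 CPM in the WT libraries 1_1_IC, 1_5_IC, 4_3_IC and 4_6_IC. Its groups overlapped, since 4_4_IC was below the WT library 1_5_IC. The log2 fold change was 0.33 (SE 0.0993) over the 7 libraries and 0.27 (SE 0.107) over the 9. Without 1_10_IC the value over the 7 was 0.21.

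Of the other members, 4 were within 0.08 of the WT level on the log2 scale over the 7 libraries and *Pon3* was not. Over the 7 libraries, *Sgce* averaged 26.5 ± 2.14 CPM in PWS-IC pups and 28.0 ± 1.45 CPM in WT pups (log2 fold change −0.08, SE 0.0799), and *Casd1* averaged 111 ± 2.94 CPM in PWS-IC pups and 110.3 ± 1.07 CPM in WT pups (0.02, SE 0.0492). *Ppp1r9a* had a log2 fold change of −0.08 (SE 0.0561) and *Pon2* of −0.02 (SE 0.108). *Pon3* had 2.41, 1.55 and 1.53 CPM in the PWS-IC libraries, against 2.41, 1.73, 2.56 and 2.90 CPM in the WT libraries, with a log2 fold change of −0.39 (SE 0.22) at 82 to 153 counts per library. That value was −0.82 without 1_10_IC and −0.25 without 4_6_IC, and the groups overlapped. In litter 4 the difference of *Pon3* was −0.81 on the log2 scale and in litter 1 it was 0.24, whereas that of *Peg10* was 0.38 and 0.56 and that of *Calcr* 0.50 and 0.66. Over the 9 libraries as labelled, the log2 fold change was −0.32 for *Ppp1r9a* (SE 0.175) and −0.20 for *Pon3* (SE 0.244). It was 0.07 for *Sgce* (SE 0.118), 0.06 for *Pon2* (SE 0.118) and −0.05 for *Casd1* (SE 0.0794).

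Over the 7 libraries, 2 of the 8 genes were called, both higher in PWS-IC pups, where 53 of 21913 genes (0.242%) were called. The call of *Peg10* stayed when any 1 library was left out, and that of *Calcr* was lost without 1_10_IC, 4_4_IC, 4_5_IC, 4_3_IC or 4_6_IC. The genotypes did not overlap for the same 2 genes, as for 10.3% of all genes tested. Over the 9 libraries as labelled, 0 of the 8 were called by edgeR, where 0 of 22367 genes (0%) were called and DESeq2 called 1, and 2 of the 8 (*Calcr* and *Asb4*) had an unadjusted p under 0.05, beside 1840 genes (8.23%). There the genotypes overlapped for all 8 genes and did not overlap for 2.29% of genes. Of the 18 neighbours that passed the filter in the 7 libraries, 0 were called by edgeR and 1 had an unadjusted p under 0.05, with 8 positive and 10 negative log2 fold changes and a median of −0.04. These counts describe the comparison that chose the genes.

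Dissection and cell type markers were set beside the same comparison. Hypothalamus markers summed to 109.7 to 121 CPM in the 3 PWS-IC libraries and to 107 to 123 CPM in the 4 WT libraries, so the sums overlapped. The markers of caudal hindbrain and spinal cord summed to 13.5 to 65.6 CPM in PWS-IC pups and to 1.17 to 58.6 CPM in WT pups. The 12 pituitary markers, of which 4 passed the filter and *Lhb* had 0 counts, summed to 8.59 to 9.91 CPM in PWS-IC pups and to 6.84 to 8.88 CPM in WT pups. All 4 that passed had a positive log2 fold change (median 0.26, 0 called by edgeR). Of the 8 olfactory bulb and forebrain tip markers 3 were positive and 5 negative (median −0.11, 0 called by edgeR). Their sums were 146 to 188 CPM in PWS-IC pups and 127 to 191 CPM in WT pups. Of the 8 choroid plexus markers 7 had a negative log2 fold change (median −0.16, with 0 called by edgeR and 2 at an unadjusted p under 0.05, *Kl* and *Kcne2*), and their sums were 502.5 to 614 CPM in PWS-IC pups and 585 to 769 CPM in WT pups. Of the 8 meninges and fibroblast markers 7 were negative (median −0.12, 0 called by edgeR and 1, *Igf2*, at an unadjusted p under 0.05), with sums of 239 to 388 CPM in PWS-IC pups and 299 to 343 CPM in WT pups. Among the 10 endothelium and pericyte markers, 1 was called, *Slc2a1*, a glucose transporter (log2 fold change 0.54, SE 0.0857, edgeR adjusted p = 0.033), while 6 were positive and 4 negative and the sums were 341 to 413 CPM in PWS-IC pups and 341 to 354.5 CPM in WT pups. Of the 10 neuron markers 8 were negative (median −0.05, 0 called by edgeR and 0 at an unadjusted p under 0.05), with sums of 5815 to 6702 CPM in PWS-IC pups and 6019 to 6488 CPM in WT pups. The share of all genes at an unadjusted p under 0.05 over the 7 libraries is not given here, so the counts of markers at that p are only described. These marker genes are named after their values were seen, and the part of these markers in the values of *Peg10* and *Calcr* was not tested. With sex added to the model, the log2 fold changes over the 7 libraries were 0.56 for *Peg10*, 0.64 for *Calcr* and 0.56 for *Asb4*. There 1 gene of the cluster, *Peg10*, was called, beside 174 calls among all 21913 genes tested. In that model *Pon2* was at −0.29 (SE 0.146), against −0.02 without the sex term, and *Pon3* at −0.38 (SE 0.372). The only WT female of the 7, 1_1_IC, had 137 CPM of *Peg10* and 10.2 CPM of *Calcr*, the lowest and near the lowest of the WT libraries.

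The library labelled 1_3_IC stood apart for several members. It had the lowest *Ppp1r9a* of the 9 libraries, 103 CPM, where the other 8 had 201 to 243 CPM, and the highest *Sgce*, 36.8 CPM, where the others had 24.2 to 30.2 CPM. Choroid plexus markers summed to 1326 CPM in it and hypothalamus markers to 154 CPM, both the highest of the series. *Peg10* and *Sgce*, the neighbours with a shared start region, lay at opposite ends of the series in this library.

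**Figure D3:**
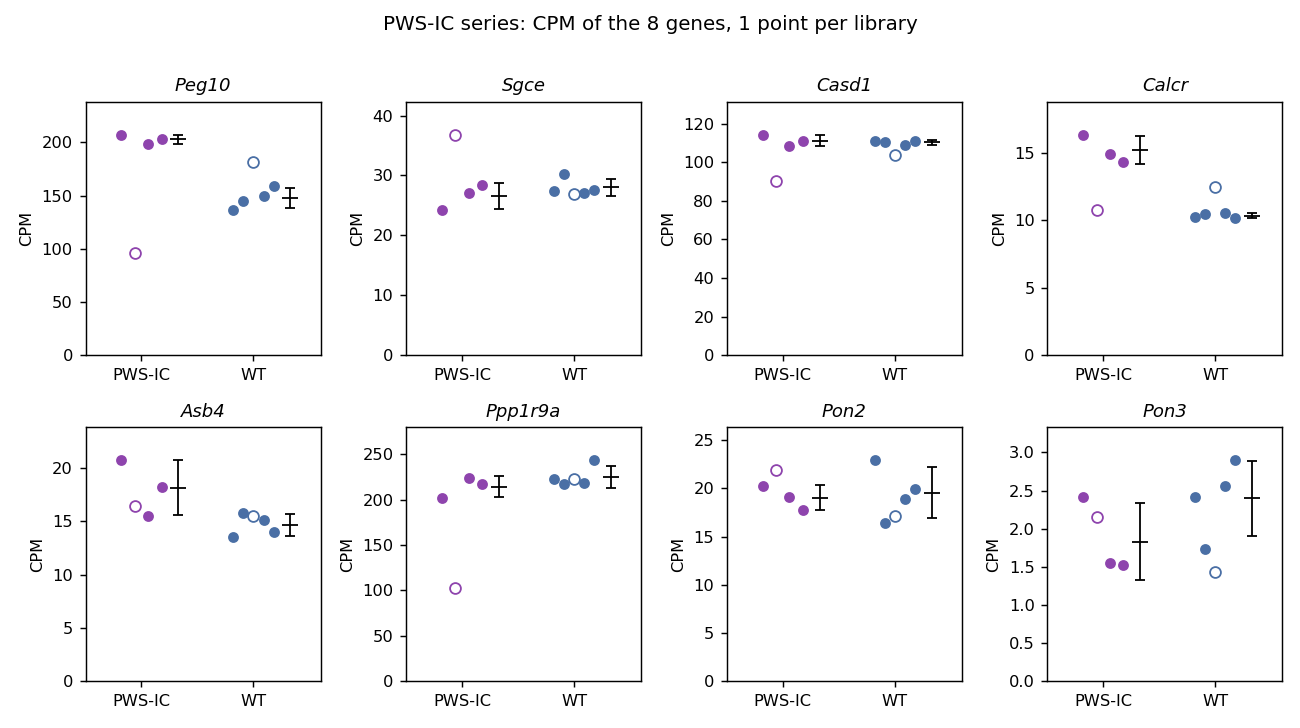
Levels of the 8 genes in the PWS-IC series (CPM, TMM-scaled, 1 point per library), with PWS-IC in purple on the left and WT in blue on the right of each panel. Open circles mark the libraries labelled 1_3_IC and 1_7_IC, which do not enter the mean and SD (black bar), and *Peg10* (199 to 207 CPM in PWS-IC, 137 to 159 CPM in WT) and *Calcr* separate the filled circles.

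Side by side, the models gave *Peg10* a log2 fold change of 0.46 (SE 0.0573) in PWS-IC pups over the 7 libraries and −0.28 (SE 0.144) in PWS-cr pups, and *Calcr* 0.57 (SE 0.0816) and −0.12 (SE 0.306). The difference between the models was not tested, because the PWS-IC comparison chose the genes. The series were also normalized separately. *Sgce* and *Casd1* lay within 0.08 of 0 in both models, and *Asb4* was at 0.33 (SE 0.0993) in PWS-IC pups and 0.00 (SE 0.219) in PWS-cr pups.

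**Figure D4:**
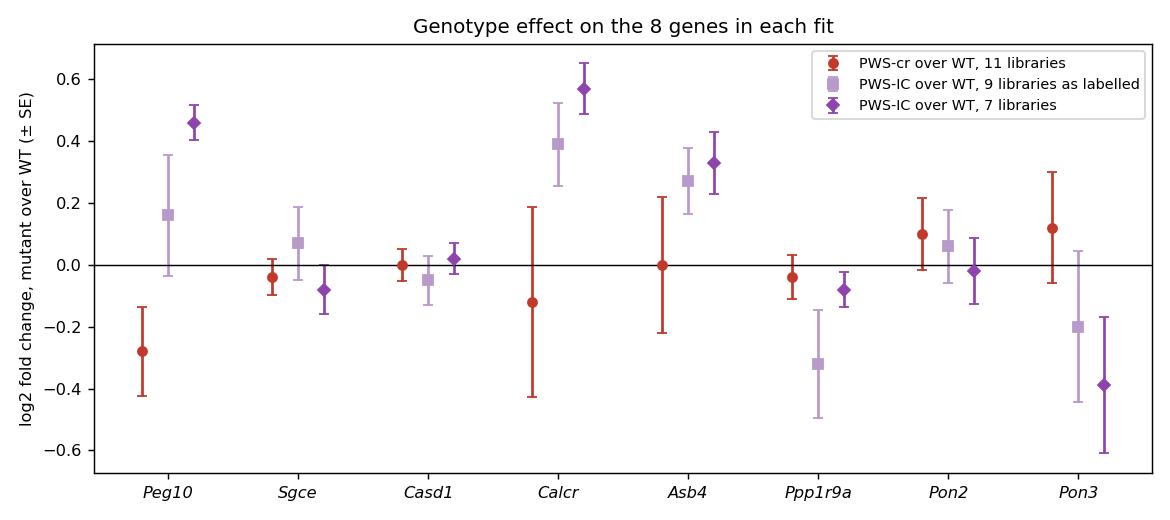
Log2 fold change, mutant over WT, with its standard error (bars) for the 8 genes in PWS-cr (red circles, 11 libraries), PWS-IC as labelled (pale squares, 9 libraries) and PWS-IC without the libraries labelled 1_3_IC and 1_7_IC (purple diamonds, 7 libraries). *Peg10* and *Calcr* are highest in the 7-library fit (0.46 and 0.57), and *Sgce* and *Casd1* stay near 0 in each.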

How the data were processed

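PolyA-selected RNA of 1 whole brain per library was sequenced as unstranded pairs. Per the labels and methods, the authors mapped reads to mm10 with STAR (random order for multimapping alignments), counted reads per gene with featureCounts and set aside 1 library per series after clustering. Of 22 labelled libraries, 20 have a column, and only these were analysed. The deposited counts are the authors' raw values per gene. The deposited signal is the authors' count after division by a size factor, and the deposited FPKM and TPM are the authors' values per transcript length. Their DESeq2 columns (log2 fold change and its standard error, the test statistic as a score, p-values before and after adjustment), as deposited, were not used.

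Counts were fitted per series in edgeR 4.0.16 (R 4.3.3; glmQLFit, glmQLFTest) with TMM scaling, litter and genotype as terms, keeping genes that reached 10 counts in 4 or more libraries. Calls were made at 0.05 after Benjamini-Hochberg adjustment over all genes tested. SE is the size of the log2 fold change divided by the square root of F. Relations with *Peg10* used log2 CPM (prior count 2) and 100000 permutations. Deposited TPM from the authors gave levels between genes. Scripts were tested on simulated data. Precision is limited by the number of pups, and counts of 78 and above were available for every member in every library.

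The members and gene lists were chosen with earlier results of these data known. All 8 members were named, other lists by counts, and the 5 genes with the highest r with *Peg10* by a fixed rule. *Snrpn* and *Xist* check the labels of the PWS-IC series, *Pon1* lies between members, and *Hoxb8*, *Kiss1* and *Lhb* are markers. Alternatives were RLE scaling, DESeq2 1.42.0, other filters, models without litter or with sex, and the removal of each library. Positions come from GENCODE M21 and promoters from RefSeq.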

Additional observations from a re-analysis of the deposited data

Results flagged for a closer look

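Among 32 sets of values (8 genes in 4 groups as labelled), 5 held a library whose gap to its neighbour was large for the range of its group, and chance alone marks about 1 set in 20. *Peg10* had 95.7 CPM in the library labelled 1_3_IC, where the other 3 libraries labelled PWS-IC had 199 to 207 CPM. *Calcr* had 12.5 CPM in the library labelled 1_7_IC, where the other 4 libraries labelled WT had 10.2 to 10.5 CPM. These are the libraries whose *Snrpn* counts go against their labels. *Sgce* had 30.2 CPM in the WT library 1_5_IC, where the others had 26.9 to 27.5 CPM, and *Ppp1r9a* had 243 CPM in the WT library 4_6_IC, where the others had 217 to 223 CPM. In the PWS-cr series, *Casd1* had 108.6 CPM in the WT library 4_2_Cr, where the others had 91.1 to 95.3 CPM.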

How the results depend on the processing

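No gene of the cluster was called in the PWS-cr or the sex comparison under any alternative run. The count of 0 over the 9 PWS-IC libraries became 2 without the libraries labelled 1_3_IC and 1_7_IC. The count of 2 over the 7 libraries became 1 with sex in the model, and 1 to 2 when 1 library was left out, and it stayed at 2 with RLE scaling, DESeq2, the stricter filter and no litter term, and was 3 without a filter. Over the 7 libraries *Peg10* was called each time, and the call of *Calcr* was lost without 1_10_IC, 4_4_IC, 4_5_IC, 4_3_IC or 4_6_IC. The PWS-IC comparison chose these genes, so the stability of their calls is a description and not a test.

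Where fold changes in PWS-cr pups crossed 0, they were at 0.00 for *Asb4* without a filter or with sex in the model and at 0.00 for *Casd1* with the stricter filter or no litter term. Leaving out 1 library gave −0.48 to 0.12 for *Calcr*, −0.20 to 0.10 for *Asb4* and −0.04 to 0.03 for *Casd1*. For female over male it gave −0.14 to 0.21 for *Peg10*, −0.15 to 0.57 for *Calcr*, −0.10 to 0.36 for *Asb4*, −0.25 to 0.14 for *Pon3* and −0.03 to 0.05 for *Casd1*. The r with *Peg10* was −0.34 for *Sgce* and −0.39 for *Pon2* without 4_2_Cr and 3_6_Cr, and −0.07 to 0.47 for *Pon2* with 1 library left out. Over the 7 PWS-IC libraries *Pon2* was at −0.29 with sex in the model, against −0.02. The count of relations that passed was 2 to 3 throughout. The causes were not tested.

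Over all genes, the 3 calls in PWS-cr pups became 7 in DESeq2 and 10 without a filter. The 53 calls over the 7 PWS-IC libraries became 223 in DESeq2, 978 without a filter, 31 with the stricter filter, 174 with sex in the model, 28 without 4_3_IC and 31 without 4_6_IC. The count of 0 over the 9 libraries became 471 without a filter, and the 7 calls for sex became 16 in DESeq2, 70 without a filter and 42 without 4_3_Cr. No paired analysis was possible because the replicate numbers only name pups, and litter is already a term of the fit. Low counts limit *Pon3*, and the number of pups limits the rest.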
